A study of Mus musculus with 2 samples.

Results

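The myelin structural protein genes examined here are the 9 genes Mbp, Cnp, Mag, Mog, Mobp, Opalin, Cldn11, Ermn and Mal, which were chosen by symbol from tables that listed 18651 genes in all. Each of the 9 had a row in both libraries. RNA was sequenced from immature mouse oligodendrocytes in 1 Seh1cKO library, labelled mutant, and 1 control library, labelled wild type. Both were on the C57BL/6 strain. Per the labels' protocols, both came from cortices of pups aged 4 to 7 days, from which precursor cells were purified by panning on antibodies to GalC and, in a next step, to O4. Both were grown with PDGF-AA, CNTF, bFGF and NT3, and were then taken on day 2 of differentiation, which was started with 60 nM triiodothyronine (T3) while PDGF-AA, bFGF and NT3 were removed. The sources used here do not give the Cre driver, the deleted exons, or the number and sex of the animals. With 1 library per genotype there was no replicate and no test of the genotype, so each difference is one between 2 libraries. All intervals are exact 95% intervals that cover counting error only.

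Myelin is the multilayered membrane that oligodendrocytes wrap around axons, and its structural proteins are made in sequence as the cells mature. Cnp, Mbp and Mag are textbook early products of differentiating oligodendrocytes, whereas Mobp, Mog, Opalin, Ermn, Cldn11 and Mal are generally placed later, and that order was used here to split the genes into 3 early and 6 late ones. Seh1l encodes Seh1, a scaffold protein of the nuclear pore, and the series title places it with Olig2 and Brd7 in oligodendrocyte differentiation and myelination.

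The libraries held 20599573 expected reads (Seh1cKO) and 20730124 expected reads (control). Seh1l itself was at 18.5 reads per 1000000 library reads (CPM) in Seh1cKO and 32.1 CPM in control, 1.73-fold lower (1.53 to 1.97), so the targeted transcript was reduced but present. Sex-linked genes differed between the libraries. Xist was at 341 CPM in Seh1cKO and 0.868 CPM in control, and the Y-linked Eif2s3y at 0.0485 CPM in Seh1cKO and 82.2 CPM in control. Genotype and sex of the animals therefore cannot be told apart for any gene. Markers of other cells were present and differed in part. Genes that averaged 1 CPM or more over both libraries are called measured. Of 13758 measured genes, 1.29% were at least 2-fold lower in Seh1cKO and 2.86% at least 2-fold higher. Fibroblast and leptomeningeal markers summed to 459 CPM in Seh1cKO and 109 CPM in control, and epithelial markers to 229 CPM in Seh1cKO and 11.9 CPM in control. Astrocyte markers summed to 5408 CPM in Seh1cKO and 8966 CPM in control, of which Gfap, the intermediate filament gene of astrocytes, was 2214 CPM in Seh1cKO and 5200 CPM in control. Of 9 measured astrocyte markers, 7 stayed within 2-fold and 2, Gfap and S100b, were lower by more than that. The median log2 ratio of the 9 was -0.23, in a range of -1.96 to 0.49. Endothelial markers summed to 25.4 CPM in Seh1cKO and 11.1 CPM in control. Of 4 measured, 3 stayed within 2-fold and 1, Cdh5, was higher, at 13.8 CPM in Seh1cKO and 1.01 CPM in control. Microglia markers summed to 18.0 CPM in Seh1cKO and 8.39 CPM in control, and neuron markers to 460 CPM in Seh1cKO and 427 CPM in control. Of the 8 neuron markers, the 2 most abundant, Map2 and Tubb3, were not higher in Seh1cKO, while the others were. The median log2 ratio of the 8 was 0.70, and only Stmn2 was at least 2-fold higher. The 10 cell cycle genes summed to 1039 CPM in Seh1cKO and 659 CPM in control, each being higher in Seh1cKO, with a median log2 ratio of 0.64. Over all measured genes the median was 0.07, and 39.1% were lower in Seh1cKO. In bulk RNA, fewer cells of a type and less RNA per cell cannot be told apart.

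The promoters of 4 of the genes are shown because their values, given further on, differ most clearly: Cnp and Cldn11 were lower by a similar factor, Mag was lower by a much larger one, and Mal was higher. Each sequence is the 250 bases before the RefSeq start on GRCm38.p6, written 5′ to 3′ on the strand of the gene. Capitals mark the motifs searched on both strands: the E-box CANNTG, the Sox-type ACAAAG and AACAAT, and the Myrf-type CTGGCAC. For Mag, which has 3 RefSeq starts, the start at position 30914863 is shown, the nearest to that of the transcript the authors counted.
Cnp (chr11:100574689-100574938, plus strand): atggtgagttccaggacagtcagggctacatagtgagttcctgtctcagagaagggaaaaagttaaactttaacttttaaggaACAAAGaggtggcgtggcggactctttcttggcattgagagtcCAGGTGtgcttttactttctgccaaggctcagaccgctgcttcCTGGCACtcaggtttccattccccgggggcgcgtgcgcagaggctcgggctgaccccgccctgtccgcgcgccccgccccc
Mag (chr7:30914864-30915113, minus strand): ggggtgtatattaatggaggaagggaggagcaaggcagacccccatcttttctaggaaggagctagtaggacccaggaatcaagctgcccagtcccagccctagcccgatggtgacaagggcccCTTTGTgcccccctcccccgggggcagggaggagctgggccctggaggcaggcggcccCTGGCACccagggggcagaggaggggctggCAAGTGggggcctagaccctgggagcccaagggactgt
Cldn11 (chr3:31149670-31149919, plus strand): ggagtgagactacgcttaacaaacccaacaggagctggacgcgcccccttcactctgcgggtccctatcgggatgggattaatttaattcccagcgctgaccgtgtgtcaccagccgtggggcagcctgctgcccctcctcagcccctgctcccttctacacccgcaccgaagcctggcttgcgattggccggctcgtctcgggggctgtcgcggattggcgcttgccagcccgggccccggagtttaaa
Mal (chr2:127656696-127656945, minus strand): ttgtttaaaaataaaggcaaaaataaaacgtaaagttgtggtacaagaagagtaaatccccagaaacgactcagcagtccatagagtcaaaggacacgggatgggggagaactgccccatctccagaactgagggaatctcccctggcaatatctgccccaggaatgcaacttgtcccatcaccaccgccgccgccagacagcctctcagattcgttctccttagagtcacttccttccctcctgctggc
The Cnp and Mag promoters each held 1 ACAAAG, 1 CTGGCAC and 1 CANNTG match in these windows. CTGGCAC, or its reverse complement GTGCCAG, was present in 2 of the 8 members with a promoter in the table and in 4.19% of all 32851 promoter windows of this length. ACAAAG was present in 4 of 8 members (Cnp, Mag, Mobp and Opalin) and in 16.5% of all windows, with 6 matches in the Mobp window. CANNTG was present in 3 of 8 members (Cnp, Mag and Opalin) and in 66.2% of all windows. The E-box forms CAGCTG and CATATG, which are contained in CANNTG, and AACAAT were in none of the 8, and in 13.0%, 3.46% and 9.42% of all windows. Mag was counted over its 3 windows, and a match describes the letters only. The Cldn11 and Mal windows held none of the motifs searched.

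The early genes were all lower in the Seh1cKO library. Cnp, the cyclic nucleotide phosphodiesterase that keeps cytoplasmic channels through myelin open (Entrez 12799, GRCm38 chromosome 11, 100574909 to 100591875), was at 347 CPM in Seh1cKO and 1037 CPM in control, from 7144 reads in Seh1cKO and 21498 reads in control. That is 2.99-fold lower (2.91 to 3.07). It was the most abundant of the 9 genes in either library. Mbp, the basic protein that holds the cytoplasmic faces of compact myelin together (Entrez 17196, chromosome 18, 82475091 to 82585637), was at 60.7 CPM in Seh1cKO and 598 CPM in control, 9.86-fold lower (9.30 to 10.5). Mag, a sialic acid-binding adhesion protein of the membrane next to the axon (Entrez 17136, chromosome 7, 30899175 to 30914922), was at 8.74 CPM in Seh1cKO and 144 CPM in control, from 180 reads in Seh1cKO and 2981 reads in control. Its level was 16.5-fold lower (14.2 to 19.2). Among the 13758 genes that averaged 1 CPM or more over both libraries, Mag had the 4th lowest log2 ratio, Mbp the 8th and Cnp the 73rd, where the log2 ratio is log2(CPM + 1) in Seh1cKO minus control.

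Among the late genes, Cldn11 alone was abundant. Cldn11, the claudin of the tight junctions between myelin lamellae (Entrez 18417, chromosome 3, 31149920 to 31164326), was at 93.7 CPM in Seh1cKO and 296 CPM in control, from 1931 reads in Seh1cKO and 6131 reads in control. It was 3.16-fold lower (3.00 to 3.32), close to the factor of Cnp. Cldn11 is also known from the arachnoid barrier of the meninges. Of 9 measured fibroblast and leptomeningeal markers, 8 were at least 2-fold higher in Seh1cKO, against 2.86% of all measured genes, and none was 2-fold lower. Crabp2 (0.820 CPM in control) and Tbx18 (0.965 CPM in control), both among the 8, reached the mean of 1 CPM only through Seh1cKO. Slc22a6 was listed in neither library. The part of such cells in the Cldn11 value was not tested.

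Mog and Opalin were lower and were detected in Seh1cKO by few reads only. Mog, an immunoglobulin-type protein of the outermost myelin surface (Entrez 17441, chromosome 17, 37010740 to 37023398), had 8 reads (0.388 CPM) in Seh1cKO and 119 reads (5.74 CPM) in control. The ratio was 14.8-fold lower (7.26 to 35.0). Opalin, a transmembrane glycoprotein of oligodendrocytes (Entrez 226115, chromosome 19, 41061959 to 41077113), had 4 reads (0.194 CPM) in Seh1cKO and 71 reads (3.42 CPM) in control, and was 17.6-fold lower (6.59 to 66.5). These wide intervals reflect the few reads in Seh1cKO.

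Mobp and Ermn were hardly expressed in either library. Mobp, a basic protein of compact myelin (Entrez 17433, chromosome 9, 120149742 to 120181488), had 2 reads in Seh1cKO and 6 in control, a ratio of 0.335 with an interval of 0.0331 to 1.88. Ermn, an actin-binding protein of late myelinating cells (Entrez 77767, chromosome 2, 58045115 to 58052864), had an expected count of 5.26 in both libraries, with a ratio of 1.01 (0.232 to 4.37). A difference in either gene was not detectable at this depth. The Ermn count was not a whole number although the tables name 1 transcript for it, so the authors' counting may have divided reads with another locus, which was not tested.

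Mal stood on the other side. Mal, a raft-associated membrane proteolipid that sorts cargo to myelin and to the apical surface of epithelia (Entrez 17153, chromosome 2, 127633226 to 127656695), had 72 reads in Seh1cKO and 20 reads in control. At 3.50 CPM in Seh1cKO and 0.965 CPM in control it was 3.62-fold higher (2.18 to 6.28). Mal is also expressed by Schwann cells. In the same libraries 8 of 9 measured epithelial markers were at least 2-fold higher in Seh1cKO, against 2.86% of all measured genes. Among them was Krt8, a keratin of simple epithelia, at 78.7 CPM in Seh1cKO and 0.772 CPM in control. Only Krt18 of these 8 was above 1 CPM in both libraries, at 63.9 CPM in Seh1cKO and 1.21 CPM in control. The others of the 8 reached the mean of 1 CPM only through Seh1cKO, so they had to differ once counted as measured. The measured marker that was not 2-fold higher was Epcam, at 7.04 CPM in Seh1cKO and 7.91 CPM in control. Cldn4 was at 0 in control and Upk3b at 0 in Seh1cKO. Schwann cell markers summed to 297 CPM in Seh1cKO and 268 CPM in control, with Pmp22, which many cell types express, at 262 CPM in Seh1cKO and 245 CPM in control, and 1 of 6 measured markers, Pou3f1, was at least 2-fold higher. The part of epithelial or Schwann-type cells in the Mal value was not tested.

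**Figure D1:**
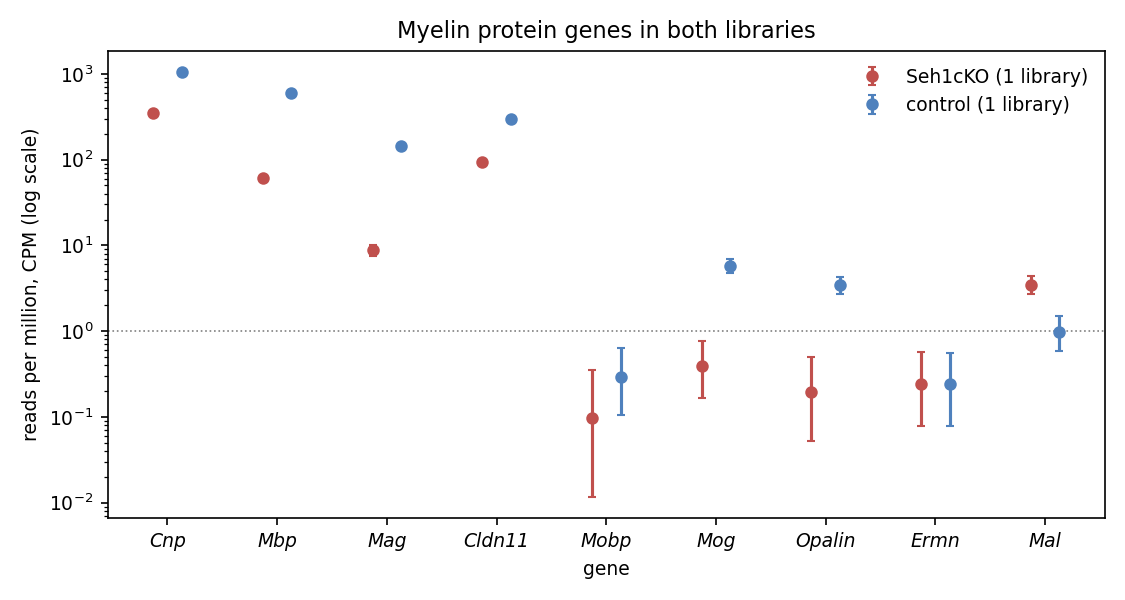
Level of each myelin protein gene in CPM (log scale) in Seh1cKO (red) and control (blue), 1 library each, with exact 95% Poisson intervals for counting error and a dotted line at 1 CPM. Cnp, Mbp, Mag and Cldn11 lie well above the line in both libraries, Mog and Opalin are above it in control, Mal is above it in Seh1cKO, and Mobp and Ermn are under it in both.

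Over all 9 genes, the counting interval of the ratio lay below 1 for 6 genes, above 1 for 1 gene (Mal) and held 1 for 2 genes (Mobp and Ermn). With a mean of at least 1 CPM and a threshold of 2-fold on the log2(CPM + 1) scale, 6 members were lower and 1 was higher, while 1.29% of all measured genes were at least 2-fold lower and 2.86% at least 2-fold higher. Mobp and Ermn did not pass the floor of 1 CPM. Mog and Opalin passed it only through control and Mal only through Seh1cKO, so those 3 had to differ once they had passed. The 4 genes above 1 CPM in both libraries, Cnp, Mbp, Mag and Cldn11, were all lower.

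**Figure D2:**
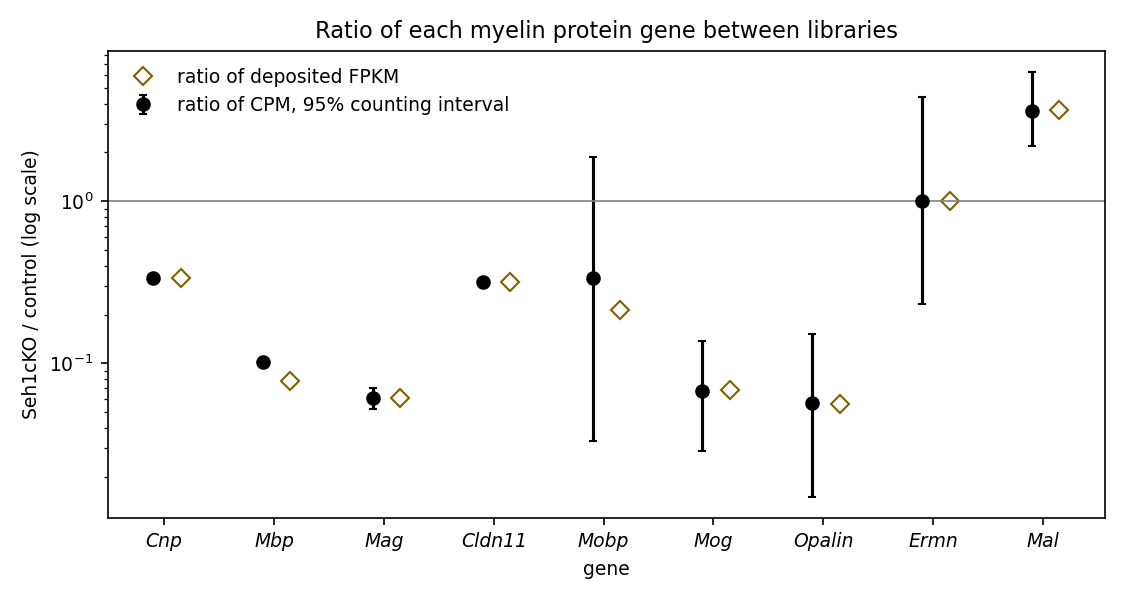
Ratio of Seh1cKO to control for each myelin protein gene (log scale), from CPM with its exact 95% counting interval (black) and from the deposited FPKM (open diamonds). Cnp and Cldn11 lie near 0.334 and 0.317, Mbp, Mag, Mog and Opalin near or below 0.101, the intervals of Mobp and Ermn hold 1, and Mal lies at 3.62; the FPKM ratio of Mbp is below its CPM ratio.

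The order of expression did not sort the ratios. The log2 ratios of the 3 early genes ran from -3.89 (Mag) to -1.58 (Cnp), with a median of -3.28. Those of the 6 late genes ran from -2.28 (Mog) to 1.19 (Mal), with a median of -0.94, or -1.77 over the 4 that passed the floor. Only Cldn11 of those 4 was above 1 CPM in both libraries, so the floor helped to set the value of -1.77. The ranges overlap, and the median log2 ratio of all measured genes was 0.07. The pseudocount of 1 CPM compresses the log2 ratios of Mog, Opalin and Mal.

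Ratios between members are free of how the libraries are scaled, and 36 pairs were compared by the exact conditional interval of the ratio of their ratios. In 20 pairs the interval lay apart from 1, and in 16 it held 1. The ratio of Cnp was 3.30 times that of Mbp (3.09 to 3.52) and 5.50 times that of Mag (4.72 to 6.45). Against Cldn11 the factor was 1.06 (0.996 to 1.12), so Cnp and Cldn11 were not separated by counting error although one is early and the other late. Mbp and Mag, both early, did separate, by a factor of 1.67 (1.42 to 1.97). Mag was not separated from Mog (0.898, interval 0.432 to 2.16) or from Opalin (1.07, interval 0.394 to 4.09), and these intervals still allow factors above 2. The 36 intervals are not adjusted for their number.

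Level per transcript length did follow the textbook order, apart from Cldn11. In FPKM, which divides reads by transcript length, Cnp was at 147 in Seh1cKO and 437 in control, Mbp at 21.5 in Seh1cKO and 277 in control, and Mag at 3.59 in Seh1cKO and 59.0 in control. Cldn11 was at 50.1 FPKM in Seh1cKO and 158 FPKM in control. The other 5 late genes were between 0.03 and 1.25 FPKM in Seh1cKO and between 0.07 and 3.93 FPKM in control. In Seh1cKO the order from high to low was Cnp, Cldn11, Mbp, Mag, Mal, Mog, Opalin, Ermn and Mobp. In control it was Cnp, Mbp, Cldn11, Mag, Opalin, Mog, Mal, Mobp and Ermn. Mog and Opalin did not separate in either library, at 0.23 FPKM (0.0993 to 0.453) and 0.22 FPKM (0.0599 to 0.563) in Seh1cKO and at 3.34 (2.77 to 4.00) and 3.93 FPKM (3.07 to 4.96) in control. The place of Opalin rests on a deposited length of 892 bases, whereas its transcript has 1839 bases in GENCODE M21.

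The 9 genes summed to 224 FPKM in Seh1cKO and 939 FPKM in control, 4.19-fold lower. Cnp made up 65.6% of that sum in Seh1cKO and 46.5% in control, and Cldn11 22.4% in Seh1cKO and 16.8% in control. Mbp took 9.59% in Seh1cKO and 29.5% in control, and Mag 1.60% in Seh1cKO and 6.29% in control. Mbp ranked above Cldn11 in control and below it in Seh1cKO.

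**Figure D3:**
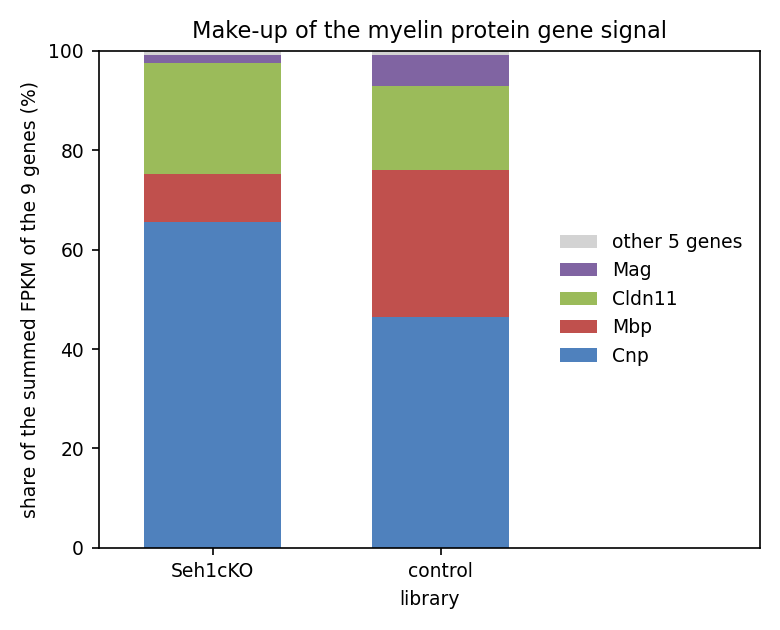
Share of the summed FPKM of the 9 myelin protein genes taken by each gene, in percent, in 1 Seh1cKO and 1 control library; grey is the sum of the 5 least abundant genes. Mbp takes 9.59% in Seh1cKO and 29.5% in control, while Cnp takes 65.6% in Seh1cKO and 46.5% in control.

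Mbp differed in a further readout. Each table gives 1 transcript length per gene, which can differ between libraries where a gene has several transcripts. For Mbp, with 8 transcripts, the length was 2809 bases in Seh1cKO and 2154 bases in control, 1.30 times longer. Among 2639 genes with at least 2 transcripts and at least 500 reads in both libraries, this was the 2nd largest increase, after Ahnak at 1.81 times. In 97.2% of those genes the lengths were within 5% of each other, and the log2 ratio of length was 0.38 for Mbp, against a 99th percentile of 0.11. Cnp, with 2 transcripts, was at 2350 bases in Seh1cKO and 2367 bases in control. FPKM divides reads by this length, and Mbp was 12.9-fold lower in FPKM and 9.86-fold lower in CPM.

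**Figure D4:**
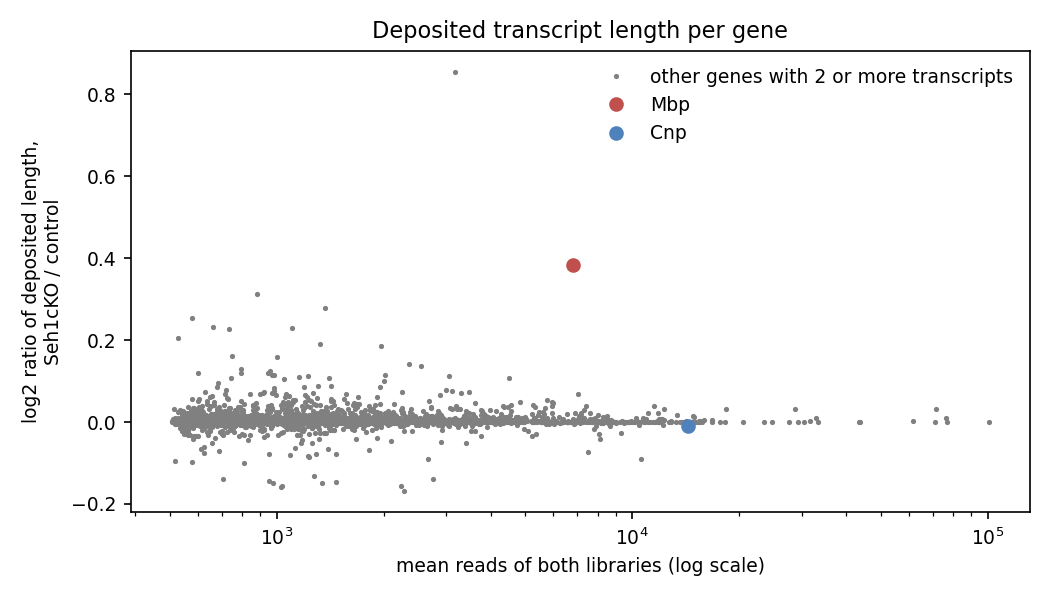
Log2 ratio of the deposited transcript length in Seh1cKO over control, against the mean reads of both libraries (log scale), for 2639 genes with at least 2 transcripts. Mbp (red) lies at 0.38, apart from nearly all other genes (grey), and Cnp (blue) lies near 0.

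The Mbp gene has an upstream promoter that yields the golli transcripts, which precursor cells and some cells outside the lineage make, and a downstream promoter that yields the classic myelin transcripts. In GENCODE M21, on GRCm38, 2 of the 8 transcripts named in the tables start upstream, at 82475146 and 82475162, with lengths of 4797 and 2492 bases. The other 6 start between 82554470 and 82554580 and are 638 to 2070 bases long. Both deposited lengths, 2809 bases in Seh1cKO and 2154 bases in control, exceeded that of each of the 6 downstream transcripts, and the Seh1cKO length also exceeded that of the shorter upstream one. The transcript lengths used by the authors may differ from these. Mag has 2427 bases in the tables and 2434 in GENCODE M21, and Opalin has 892 and 1839. The control length of 2154 bases lies close to the longest downstream transcript, at 2070 bases, so that comparison depends on which lengths were used. The sources used here do not say how the authors derived the length, nor give the reads of each Mbp transcript, so the share of golli transcripts was not measured. The Mobp length, 3207 bases in Seh1cKO and 2169 bases in control, rests on 2 reads in Seh1cKO and 6 reads in control.

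The authors' deposited table of 896 genes (237 lower and 659 higher) contains 7 of the 9 members, all but Mobp and Ermn. In the authors' deposited table the log2 fold changes were -4.16 for Opalin, -4.04 for Mag, -3.86 for Mog, -3.69 for Mbp, -1.66 for Cldn11, -1.57 for Cnp and 1.88 for Mal. Its false discovery rate for Mal was 1.81e-07 and for Opalin 6.33e-16, from 1 library per group, and the sources used here do not name the test behind them. These fold changes are ratios of the deposited FPKM and repeat the values above without a pseudocount.

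Other genes of myelin were lower in part. Beside the counts that follow, 1.29% of all measured genes were at least 2-fold lower and 2.86% at least 2-fold higher. Of 23 further genes for myelin membrane, adhesion and junction proteins, 17 were measured, and 5 of these were at least 2-fold lower, none 2-fold higher and 12 within 2-fold, with a median log2 ratio of -0.61, or -0.15 over all 23 without the floor of 1 CPM. The deacetylase Sirt2, abundant in myelin, was at 236 CPM in Seh1cKO and 834 CPM in control. Tmem88b was at 12.9 CPM in Seh1cKO and 65.8 CPM in control, the plasmolipin gene Pllp at 54.1 CPM in Seh1cKO and 133 CPM in control, and the glial connexin gene Gjc3 at 15.4 CPM in Seh1cKO and 40.6 CPM in control. The 6 unmeasured genes, among them Gjb1, Hapln2, Tmem125, S1pr5 and Klk6, had at most 9 reads in Seh1cKO and at most 10 reads in control, near the counts of Mobp and Ermn. Of 11 measured genes for myelin lipid and metabolic enzymes, 4 were at least 2-fold lower, none 2-fold higher, and the median was -0.24, or -0.15 over all 12 without the floor. These were Fa2h, which hydroxylates the fatty acids of myelin lipids (8.25 CPM in Seh1cKO and 43.7 CPM in control), Ugt8a, which makes galactosylceramide (28.2 CPM in Seh1cKO and 104 CPM in control), the sulfatide enzyme gene Gal3st1 and the elongase gene Elovl7.

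Genes of other stages of the lineage give the setting of these values. The shares over all measured genes were again 1.29% at least 2-fold lower and 2.86% at least 2-fold higher. Of the newly formed oligodendrocyte genes, 7 of 12 measured were at least 2-fold lower, none was 2-fold higher, and the median was -1.52. Among transcription factors 5 of 12 were at least 2-fold lower, with a median of -0.70. Myrf, the activator of myelin genes, was at 45.9 CPM in Seh1cKO and 188 CPM in control, whereas Olig1 was at 873 CPM in Seh1cKO and 864 CPM in control. Among 10 precursor genes 1 was at least 2-fold lower and 1 at least 2-fold higher, with a median of 0.21. No test separates these lists.

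**Figure D5:**
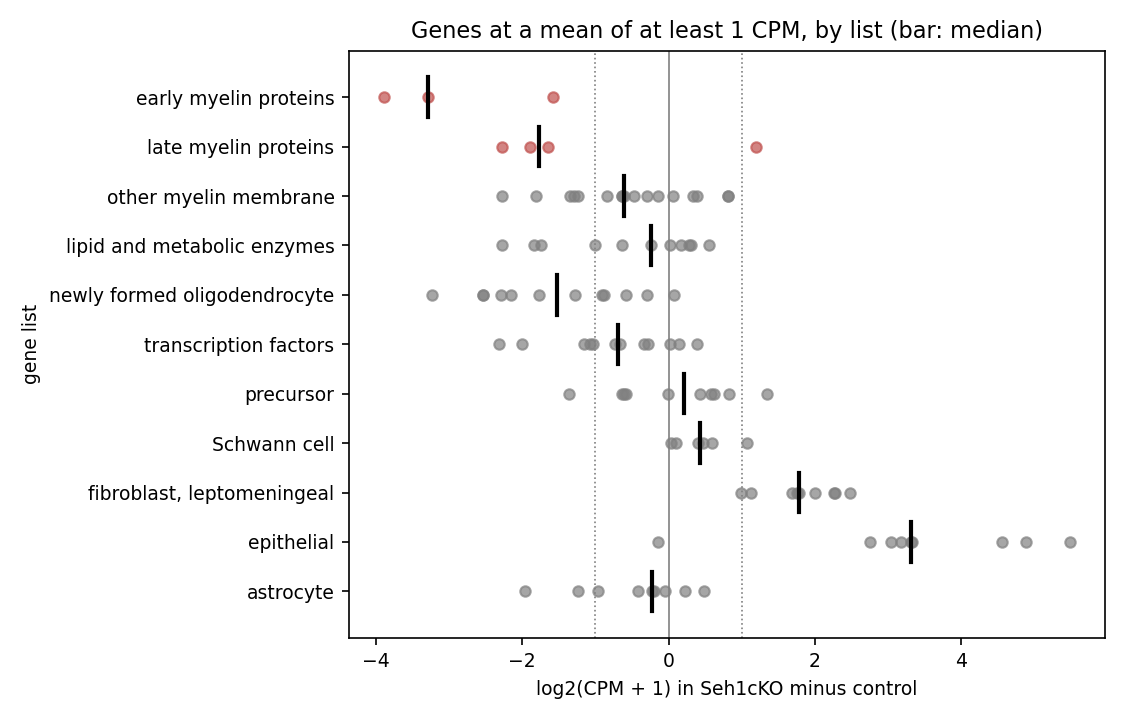
Log2(CPM + 1) in Seh1cKO minus control for genes averaging 1 CPM or more, by gene list, with myelin proteins in red, a black bar at each median and dotted lines at 2-fold. The medians are -3.28 for early and -1.77 for late myelin proteins, -1.52 for newly formed oligodendrocyte genes, 0.21 for precursor genes, 1.79 for fibroblast and leptomeningeal markers and 3.32 for epithelial markers. Of the late proteins shown, only Cldn11 was above 1 CPM in both libraries, and of the epithelial markers at least 2-fold higher, only Krt18 was.

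Genes outside the lists that lay nearest to the abundant members, by Euclidean distance of log2(CPM + 1) over both libraries among 10896 named genes at a mean of at least 5 CPM, are given as a description. Nearest to Cnp was Bcan, at 460 CPM in Seh1cKO and 962 CPM in control (distance 0.42). Nearest to Cldn11 was Mink1, at 115 CPM in Seh1cKO and 260 CPM in control (distance 0.35). Among the 3 nearest to Mag was Plxnb3, a semaphorin receptor gene, at 17.6 CPM in Seh1cKO and 92.6 CPM in control (distance 1.13). Among the 3 nearest to Mbp was Tubb4a, a tubulin gene of oligodendrocytes, at 137 CPM in Seh1cKO and 742 CPM in control (distance 1.20). A neighbouring gene on the opposite strand overlaps the wider span of the Cnp gene (Dnajc7, at 199 CPM in Seh1cKO and 238 CPM in control). In GENCODE M21 the Cnp transcript matched to those the authors counted ends at 100581728, before Dnajc7, which begins at position 100582818. The Ermn transcript, from 58045113, does overlap the span of Galnt5, to 58045860, on the opposite strand. The sources used here give no strand setting, so reads in that overlap cannot be told apart.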

How the data were processed

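Each library's table, as deposited by the authors, gives an expected count, an FPKM value and a transcript length per gene, without normalization of the counts. Per the submitters' processing notes, HTSeq, StringTie and the mm10 build were used, with no role stated, and the sources used here name neither the aligner nor the strand setting. Of the genes listed, 29.5% in Seh1cKO and 29.3% in control had an expected count that was not a whole number. A further table deposited by the authors gives, per gene, a p-value with its false discovery rate and a log2 fold change, and its FPKM values equal those of the library tables for 100% of genes (tolerance 0.005). No column of per-sample values was left unmapped.

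Here, expected counts were rounded, and genes missing from a library were set to 0. Counts were scaled to 1000000 reads per library (CPM), and log2 ratios used CPM + 1. Genes averaging 1 CPM or more over both libraries were called measured, and the threshold was 2-fold. Ratios of single genes are ratios of CPM with an exact Clopper-Pearson interval. Without molecular identifiers reads are not independent molecules, so these intervals may be too narrow. A count of 0 allows 3 counts, or 0.146 CPM in Seh1cKO and 0.145 CPM in control. With 1 library per group no test was run.

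The members and lists were chosen with earlier results of these data known. Named genes are all members, Seh1l, and the 3 genes nearest to each member. To these come the 2 most abundant markers of each other cell type and up to 4 genes with the largest absolute log2 ratio in each list. Not every gene picked is printed. Olig1, Xist, Eif2s3y, Pmp22, Epcam, Cldn4, Upk3b, Crabp2, Tbx18, Dnajc7, Galnt5, Ahnak and the genes under the floor were named after their values were seen. Coordinates are from the RefSeq table of GRCm38.p6, the assembly behind mm10, which also gave the promoters, matched by symbol for 8 of 9 members. The alternatives were other pseudocounts, scalings and floors, unrounded counts, FPKM, other splits of the members and leaving out chromosomes X and Y. The calculation was tested on simulated counts. Python 3.11.15, scipy 1.17.1 and pandas 2.3.3 were used.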

Additional observations from a re-analysis of the deposited data

How the results depend on the processing

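No paired analysis was possible because each group holds 1 library, and no library could be left out. The 6 lower members numbered 4 with a pseudocount of 5 CPM or a floor of 5 CPM and 6 under the other alternatives. Mal, the 1 higher member, was past 2-fold under the other alternatives but not with a pseudocount of 5 CPM, on the FPKM scale or with a floor of 5 CPM (0 members higher in each). No member whose counting interval excludes 1 changed direction. The median of the early genes ran from -3.63 to -2.43 over the alternatives. That of the late genes was -2.62 with a pseudocount of 0.1 CPM, -0.85 with one of 5 CPM and -0.94 without a floor. Among all measured genes, those at least 2-fold higher numbered 637 with a pseudocount of 0.1 CPM, 141 with one of 5 CPM, 204 on the FPKM scale and 228 with a floor of 5 CPM, beside 394 in the report. Those at least 2-fold lower numbered 116 with a pseudocount of 5 CPM and 241 with one of 0.1 CPM, beside 178. The share of higher genes among those past 2-fold was 68.9%, and 58.0% on the FPKM scale and 54.9% with a pseudocount of 5 CPM. The epithelial median of 3.32 was 1.57 with a pseudocount of 5 CPM and 2.59 on the FPKM scale. Depth limits Mobp, Ermn, Mog and Opalin, which had 2 to 8 reads in Seh1cKO.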
